A study of Mus musculus with 9 samples.

Results

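The genes described here are 8 interferon-inducible GTPases of the mouse: 3 guanylate-binding proteins (GBPs; Gbp2b, Gbp2 and Gbp3) and 5 immunity-related GTPases (IRGs; Iigp1, Tgtp1, Irgm1, Irgm2 and Igtp). They were taken as every array probe whose gene name in the scanner files is one of these symbols or an older alias, Gbp1 for Gbp2b and Tgtp for Tgtp1. This gave 11 of the 41174 probes, for 8 of the 12054 genes that could be tested, and all 8 genes had a probe that passed the filter on dim signal. The genes were chosen by their measured differences between the 3 groups on these arrays, so their levels and differences are given as a description, without a p-value.

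GBPs and IRGs are GTPases that cells make in quantity after exposure to interferon, above all interferon gamma. They assemble on the vacuoles of intracellular bacteria and parasites and disrupt them, which is the best known role of the families in macrophages and fibroblasts. Among the IRGs, Iigp1 and Tgtp1 belong to the effector group that coats the vacuole, while Irgm1, Irgm2 and Igtp are the regulators that sit on the cell's own membranes and keep the effectors inactive there. Transcription of both families runs through the kinases JAK1 and JAK2 at the interferon receptors and depends on GAS and ISRE elements in their promoters, the latter bound by factors such as IRF1.

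Gene expression was measured on 1-colour Agilent arrays in pro-B cells, the earliest committed B cell precursors, of C57Bl/6 background and transformed with A-MuLV, the Abelson leukaemia virus. All 3 groups carry the genotype Ebf1fl/fl RERTCre and all were given 2 μM 4-hydroxy-tamoxifen, per their shared treatment protocol, which activates the Cre recombinase that deletes the floxed Ebf1. The sample label of EBF1wt replicate 3 alone does not name tamoxifen, and whether it was treated cannot be told from the labels. EBF1 is a transcription factor needed for B cell identity. EBF1wt cells received the retroviral vector pmys-EBF1wt-IRES-GFP and EBF1ΔC cells pmys-EBF1ΔC-IRES-GFP, whose EBF1 lacks the C-terminal domain; both had tamoxifen 24 h after transduction, a sort for GFP 5 days later and over 2 weeks of further culture. Mock cells were mock-transduced and harvested 4 days after tamoxifen. Each group has 3 arrays, and the labels do not say whether these came from separate cultures, so the spread between them may be technical. EBF1ΔC against EBF1wt compares replacement without and with the C-terminal domain, and the measured level of Ebf1 also differs between them. Each comparison with Mock also differs in time, sorting, slide and scan day, which cannot be told apart from the group.

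Between 50.7% and 56.9% of the probes on an array were well above background. Ebf1 itself was higher than in Mock by 1.61 on the log2 scale in EBF1wt (SE 0.15) and by 2.35 in EBF1ΔC (SE 0.15). It was higher in EBF1ΔC than in EBF1wt by 0.74 (SE 0.15, limma adjusted p = 0.0190), short of 2-fold. This difference in level and the loss of the domain cannot be told apart in that comparison. Where the Ebf1 probe lies relative to the floxed part and to the removed C-terminus was not examined. All 10 pro-B cell markers were well above background on every array, and their summed linear level, in units of the array's 75th percentile, was 273.9 to 286.7 in Mock, 864.6 to 929.1 in EBF1wt and 879.2 to 914.4 in EBF1ΔC. Of these markers, Rag1 (2.14, limma adjusted p = 0.0291) and Dntt (1.51, adjusted p = 0.0223) were called higher and Igll1 (-1.08, adjusted p = 0.00170) lower in EBF1ΔC than in EBF1wt, and the part of such shifts in the GTPase differences was not tested. EBF1wt replicate 2 stood apart from the other EBF1wt arrays, and had the lowest weight when arrays were weighted by their fit (0.367, against 0.482 for EBF1ΔC replicate 3, the next lowest). It had the lowest EBF1wt value for 8 of 8 of the GTPase genes (of 2 arrays for Tgtp1, which has no value on replicate 3), against 38.7% of all genes tested. EBF1ΔC replicate 3 was the highest of its group for 6 of 8, against 34.2% of all genes. These arrays shared a slide, so results that rest on them are given with and without them. Without EBF1wt replicate 3, whose label leaves out tamoxifen, Iigp1 (2.79), Gbp2b (1.49) and Gbp2 (1.36) were still called in EBF1ΔC over EBF1wt. Tgtp1 (1.46) was also called, but it has no value on that array, so its difference could not change. On bulk RNA, fewer cells that express a gene and less RNA per cell cannot be told apart.

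Promoter sequence was available from RefSeq (assembly GRCm38.p6) for 7 of the 8 genes, with 2 starts for Gbp3; Iigp1 had no entry. In the 250 bases before the start, the core of the interferon-stimulated response element, a pair of GAAA with any 2 bases between them on either strand, was present for all 7 genes and in 7 of their 8 entries, against 2.98% of the 32851 mouse promoters in the same table. The letters of the gamma-activated sequence (GAS), TTCNNNGAA, which read the same on both strands, were present before Tgtp1, Irgm2 and Igtp, in 3 of 8 entries against 7.02% of all promoters. The core of the EBF1 motif, CCCNNGGG, was present before Tgtp1 and Irgm2, in 2 of 8 entries against 11.82% of all promoters. Of 7 entries of other GBP and IRG family genes, 4 held the ISRE core, 4 GAS and 0 the EBF1 core. Of 26 entries of other interferon-induced genes, 8, 6 and 3 did. A match of letters is a description of the sequence and not a measured binding site.

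To show how these elements lie, 150 bases up to the start are printed for the 3 genes with the largest differences among those with an entry (Gbp2b, Gbp2 and Tgtp1) and for the regulators Irgm1 and Irgm2, which differed least. They read 5′ to 3′ along each gene's strand and are from the GRCm38.p6 assembly, which is later than the build of the array's probe positions. Capitals mark the pair of GAAA, or on the reverse strand of TTTC, with the bases between, and matches to TTCNNNGAA.
Gbp2b, chr3:142594697-142594846, plus strand: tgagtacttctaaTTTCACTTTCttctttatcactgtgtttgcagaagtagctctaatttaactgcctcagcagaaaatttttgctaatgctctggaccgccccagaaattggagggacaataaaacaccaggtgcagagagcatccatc
Gbp2, chr3:142620513-142620662, plus strand: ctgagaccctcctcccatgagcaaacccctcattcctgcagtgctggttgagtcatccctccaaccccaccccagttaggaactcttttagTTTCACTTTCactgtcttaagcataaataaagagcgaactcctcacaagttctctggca
Tgtp1, chr11:48992247-48992396, minus strand: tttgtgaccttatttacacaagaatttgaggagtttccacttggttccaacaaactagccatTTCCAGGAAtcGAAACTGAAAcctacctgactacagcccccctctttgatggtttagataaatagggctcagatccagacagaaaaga
Irgm1, chr11:48871421-48871570, minus strand: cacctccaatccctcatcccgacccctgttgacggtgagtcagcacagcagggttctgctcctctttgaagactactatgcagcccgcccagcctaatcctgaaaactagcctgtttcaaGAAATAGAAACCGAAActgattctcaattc
Irgm2, chr11:58214827-58214976, plus strand: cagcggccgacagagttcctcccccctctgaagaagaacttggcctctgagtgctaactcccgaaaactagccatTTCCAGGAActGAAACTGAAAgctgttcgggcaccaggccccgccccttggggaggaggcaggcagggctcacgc

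The 2 GBP genes hold the element in the reverse orientation, with the same letters TTTCACTTTC, 137 to 128 bases before the start of Gbp2b and 59 to 50 bases before that of Gbp2. Tgtp1 and Irgm2 share a block in which a TTCCAGGAA is followed after 2 bases by GAAACTGAAA, the latter at 77 to 68 bases before the start in Tgtp1 and at 64 to 55 in Irgm2. Irgm1 has 2 overlapping matches that share their middle GAAA, from 30 to 15 bases before its start, and no match to TTCNNNGAA in the window. Igtp, whose sequence is not printed, has the same spacing, with TTCTAGGAA from 45 to 37 bases before its start and GAAACTGAAA from 34 to 25. Among the 7 genes with an entry, this arrangement precedes Tgtp1, Igtp and Irgm2. Their differences between EBF1ΔC and EBF1wt were 1.46, 0.54 and 0.24. Whether the block goes with the size of a difference was not tested.

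In EBF1ΔC cells all 8 GTPase genes were higher than in EBF1wt cells, from 1.18-fold for Irgm2 to 6.10-fold for Iigp1. The effectors Iigp1 and Tgtp1 and the GBPs Gbp2b and Gbp2 met the call rule, which was a Benjamini-Hochberg adjusted p under 0.05 over all genes in limma and at least a 2-fold difference; that is 4 of 8, where 2.75% of all 12054 genes were called, 1.43% higher and 1.32% lower. Gbp3, Irgm1, Irgm2 and Igtp did not meet it, and Gbp3 and Igtp passed the adjusted p without reaching 2-fold, where 9.06% of all genes passed it. The median difference of the 8 genes was 0.89 on the log2 scale, and that of all genes tested was -0.0006. For 7 of 8, all but Irgm1, every EBF1ΔC array was above every EBF1wt array, where 13.8% of all genes were higher without overlap and 16.7% lower. In EBF1wt cells the 8 genes were at or below their Mock level under the scaling used, and 5 of them above it under scaling to the median. EBF1ΔC cells were near Mock for Gbp2 and above it for Iigp1 and Tgtp1. Levels below are log2 of the signal over the 75th percentile of the array, so 0 is the level of that percentile; they serve to compare arrays for 1 gene and not genes with each other.

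**Figure D1:**
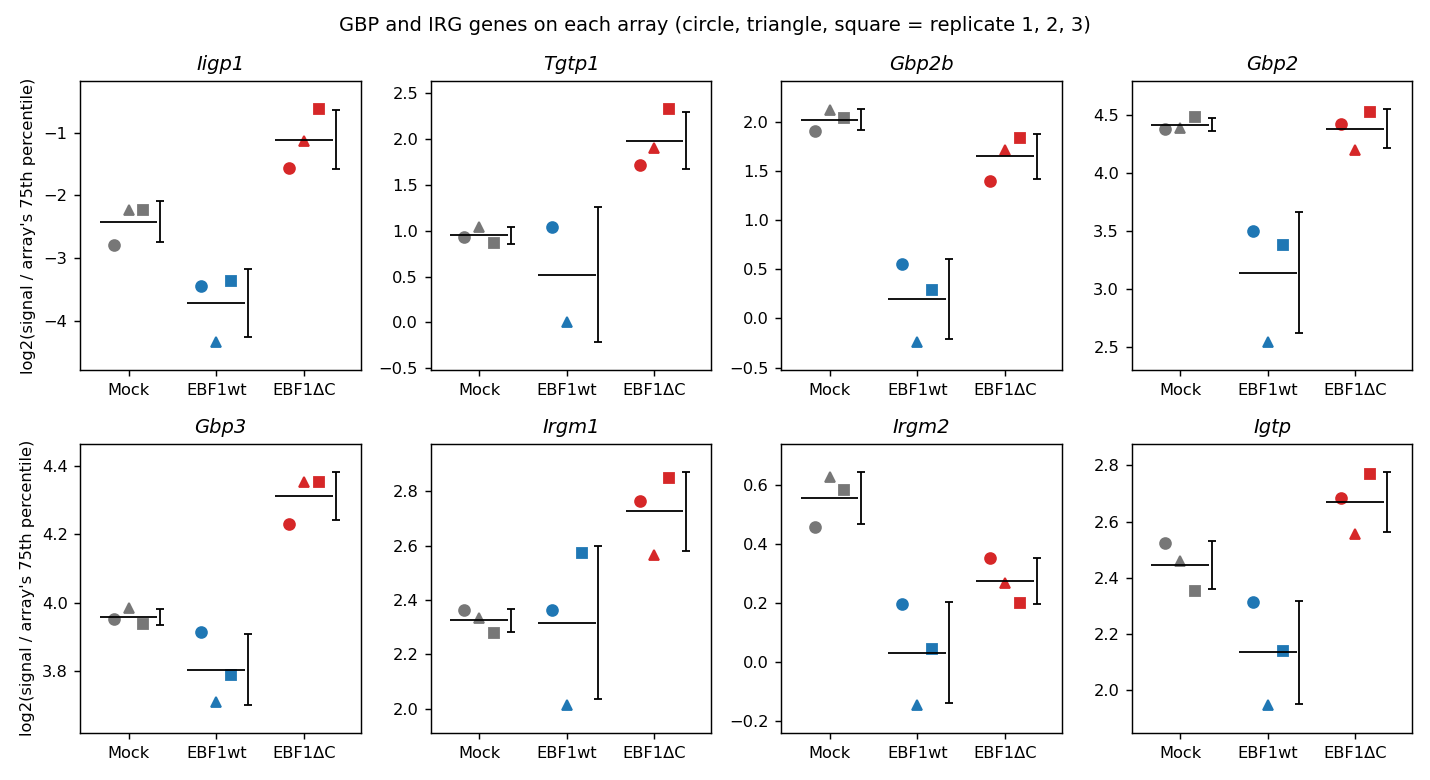
Level of each of the 8 genes on every array (y axis, log2 of signal over the array's 75th percentile; scales differ between panels) by group (x axis), with the group mean as a line and the SD as a bar; symbols mark replicates 1 to 3, and Tgtp1 has no value on EBF1wt replicate 3. EBF1wt replicate 2, the blue triangle, is the lowest EBF1wt array in all 8 panels, and EBF1ΔC lies above EBF1wt without overlap in all but the Irgm1 panel.

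Iigp1 encodes the effector IRG also known as Irga6. Its level was -2.80, -2.23 and -2.22 on Mock replicates 1 to 3, -3.44, -4.34 and -3.36 on the EBF1wt arrays, and -1.56, -1.14 and -0.62 on the EBF1ΔC arrays. The 3 groups formed 3 separate bands, with EBF1wt lowest, Mock between and EBF1ΔC highest. EBF1ΔC exceeded EBF1wt by 2.61 (SE 0.32), and 0.224% of all genes had a higher difference. It was also called higher than Mock in EBF1ΔC (1.31, SE 0.32) and lower than Mock in EBF1wt (-1.30, SE 0.32). Its spots were dim, with a processed intensity of 23.4 on EBF1wt replicate 2 and 326.8 on EBF1ΔC replicate 3, but well above background on all 9 arrays. With normexp background correction and quantile normalization EBF1ΔC exceeded EBF1wt by 1.24, and in values from the authors' deposited table by 1.13, still called. The difference of EBF1wt from Mock was -0.21 and -0.15 in these and not called, nor was it with quantile normalization alone (-0.82), and in the authors' deposited table EBF1ΔC over Mock (0.98) was not called.

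Tgtp1, also known as Irgb6, is the second effector IRG. The files tie its probes to the accession of Tgtp1, and whether they also detect the near-identical copy Tgtp2 was not examined, so its values are uncertain in that respect. Its brighter probe (mm9, chromosome 11, 48800173 to 48800232) read 0.93, 1.04 and 0.87 on the Mock arrays, 1.04 and -0.0006 on EBF1wt replicates 1 and 2, and 1.72, 1.90 and 2.33 on the EBF1ΔC arrays. EBF1wt replicate 3 has no value because the scanner software marked the spot as an outlier, so the fit used 2 EBF1wt arrays for this gene. EBF1ΔC lay above all other arrays, while EBF1wt replicate 1 lay beside the highest Mock array and replicate 2 well below all of them. EBF1ΔC exceeded EBF1wt by 1.46 (SE 0.30) and Mock by 1.03 (SE 0.27), both called. Against Mock, EBF1wt was at -0.43 (SE 0.30) and overlapped it.

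The dimmer Tgtp1 probe (chromosome 11, 48799587 to 48799646) has a value on all 9 arrays. It read -3.36, -3.59 and -3.64 on the Mock arrays, -4.43, -5.23 and -4.62 on the EBF1wt arrays, and -3.50, -3.69 and -3.14 on the EBF1ΔC arrays. On this probe EBF1wt was below both other groups, and Mock and EBF1ΔC overlapped. EBF1ΔC minus EBF1wt was 1.32 (SE 0.22), close to the brighter probe, but the probes disagreed against Mock: EBF1wt was at -1.23 (SE 0.22) and EBF1ΔC at 0.09 (SE 0.22). The higher level of EBF1ΔC over Mock therefore rests on 1 of the 2 probes, and the mean of both (0.56) was not called.

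Gbp2b, the GTPase formerly called Gbp1 in the mouse, was measured at chromosome 3, 142281897 to 142281956. It read 1.91, 2.12 and 2.04 on the Mock arrays, 0.55, -0.24 and 0.29 on the EBF1wt arrays, and 1.39, 1.71 and 1.84 on the EBF1ΔC arrays. EBF1wt was far below both other groups, and EBF1ΔC ended just under the lowest Mock array. EBF1ΔC exceeded EBF1wt by 1.45 (SE 0.20) and EBF1wt was at -1.82 (SE 0.20) against Mock, both called. EBF1ΔC against Mock was at -0.37 (SE 0.20) and not called.

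Gbp2, a GBP that is recruited to vacuoles of parasites and bacteria, lies next to Gbp2b (probe at chromosome 3, 142300719 to 142300778). Its level was 4.38, 4.39 and 4.48 on the Mock arrays, 3.50, 2.54 and 3.38 on the EBF1wt arrays, and 4.42, 4.20 and 4.53 on the EBF1ΔC arrays. EBF1ΔC and Mock covered the same range, and all EBF1wt arrays were below them. EBF1ΔC exceeded EBF1wt by 1.24 (SE 0.23), EBF1wt was at -1.28 (SE 0.23) against Mock, and EBF1ΔC at -0.04 (SE 0.23) against Mock.

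Gbp3, the remaining GBP of the list, varied far less (probe at chromosome 3, 142236072 to 142236131). It read 3.95, 3.98 and 3.94 on the Mock arrays, 3.91, 3.71 and 3.79 on the EBF1wt arrays, and 4.23, 4.35 and 4.35 on the EBF1ΔC arrays. The 3 groups were again separate bands, but narrow ones: EBF1ΔC exceeded EBF1wt by 0.51 (SE 0.08) and Mock by 0.36 (SE 0.08), and EBF1wt was at -0.15 (SE 0.08) against Mock. None of these reached 2-fold. Gbp3 lies between Gbp7 and Gbp2b in the same gene cluster as the 2 GBPs that were called.

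Between EBF1ΔC and EBF1wt, the regulators Irgm1, Irgm2 and Igtp showed, with Gbp3, the smallest differences of the 8 genes. Irgm1 (probe at chromosome 11, 48679069 to 48679128) read 2.36, 2.33 and 2.28 on the Mock arrays, 2.36, 2.01 and 2.57 on the EBF1wt arrays, and 2.76, 2.57 and 2.85 on the EBF1ΔC arrays. The EBF1wt arrays were the most spread, and the highest of them reached the lowest EBF1ΔC array, so the groups overlapped at that point (EBF1ΔC over EBF1wt 0.41, SE 0.14), while EBF1ΔC was above Mock on every array (0.40, SE 0.14). A second Irgm1 probe gave 0.37 (SE 0.16) for EBF1ΔC over EBF1wt, and the last, designed on an Ensembl transcript, was well above background on 0 arrays.

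Irgm2 (probe at chromosome 11, 58036064 to 58036123) read 0.46, 0.63 and 0.58 on the Mock arrays, 0.20, -0.15 and 0.04 on the EBF1wt arrays, and 0.35, 0.27 and 0.20 on the EBF1ΔC arrays. Mock was the highest group and EBF1wt the lowest, with EBF1ΔC between. EBF1ΔC minus EBF1wt was 0.24 (SE 0.10), and its lowest array and the highest EBF1wt array were nearly equal. Irgm2 was the only one of the 3 regulators that was below Mock in EBF1ΔC (-0.28, SE 0.10) as well as in EBF1wt (-0.53, SE 0.10).

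Igtp, also known as Irgm3 (probe at chromosome 11, 58020927 to 58020986), read 2.52, 2.46 and 2.35 on the Mock arrays, 2.31, 1.95 and 2.14 on the EBF1wt arrays, and 2.68, 2.56 and 2.77 on the EBF1ΔC arrays. The order EBF1wt, Mock, EBF1ΔC held without overlap under the scaling used. EBF1ΔC exceeded EBF1wt by 0.54 (SE 0.11) and Mock by 0.22 (SE 0.11), and EBF1wt was at -0.31 (SE 0.11) against Mock. EBF1ΔC minus Mock was -0.005 with normexp and quantile normalization, 0.04 with quantile normalization alone and -0.02 in the authors' deposited table. The place of EBF1ΔC above Mock thus depended on the normalization.

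**Figure D2:**
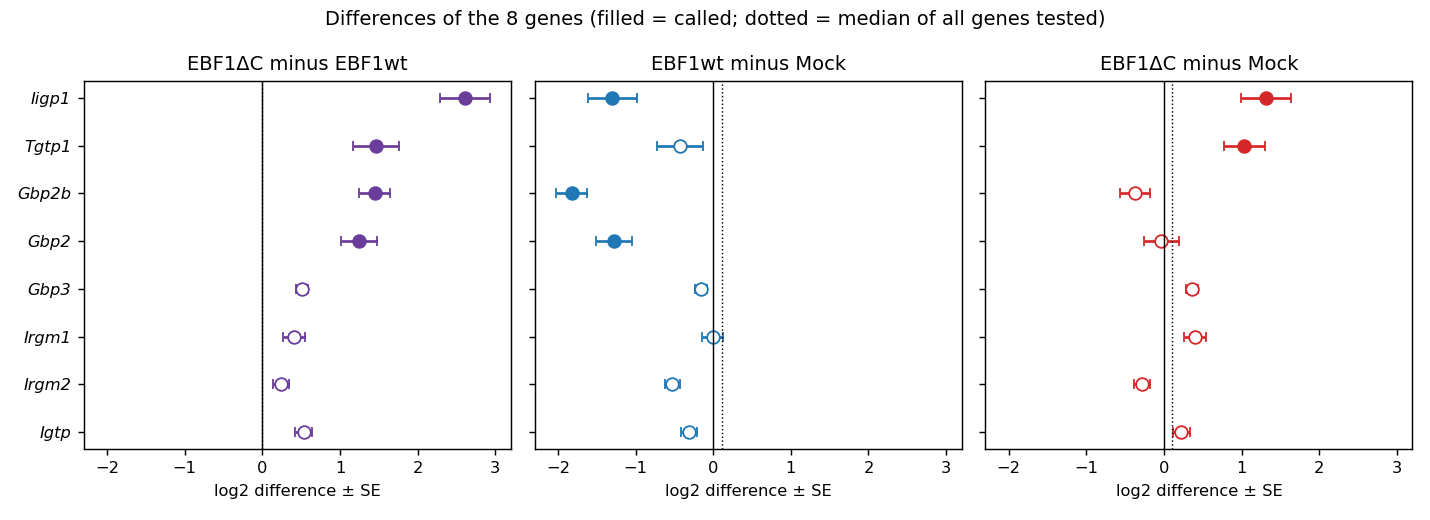
Log2 difference of each of the 8 genes in the 3 comparisons (x axis, with the SE of the fit as a bar; filled circles met the call rule, dotted lines mark the median of all genes tested). All 8 genes are to the right of 0 in EBF1ΔC minus EBF1wt, all 8 to the left in EBF1wt minus Mock under the scaling used, and they fall on both sides in EBF1ΔC minus Mock.

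Against Mock, 3 of 8 genes were called lower in EBF1wt (Iigp1, Gbp2b and Gbp2), where 19.5% of all genes were called, 12.9% lower and 6.59% higher. The median of the 8 was -0.48 and that of all genes 0.12. For 6 of 8, EBF1wt was below every Mock array, where 29.7% of all genes were lower without overlap and 42.8% higher. By the adjusted p alone 5 of 8 passed, where 66.4% of all genes did. In EBF1ΔC 2 of 8 were called higher than Mock (Iigp1 and Tgtp1), where 18.1% of all genes were called, 6.32% higher and 11.8% lower. The median of the 8 was 0.29, beside 0.10 for all genes, with 5 genes above 0 and 3 below, and 5 higher and 2 lower without overlap, where 41.7% and 30.1% of all genes were. By the adjusted p alone 5 of 8 passed, where 64.4% of all genes did. Both comparisons share the Mock arrays and cannot be set against each other as independent.

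Directions against Mock depended on the scaling. When arrays were scaled to their median in place of the 75th percentile, the median of all genes moved to 0.82 in EBF1wt and to 0.65 in EBF1ΔC, and 85.2% and 78.3% of the called genes were higher, against 33.8% and 34.8% as reported. Under that scaling Tgtp1, Gbp3, Irgm1, Irgm2 and Igtp turned above 0 in EBF1wt (0.28, 0.55, 0.70, 0.18 and 0.39), and Gbp2b, Gbp2 and Irgm2 turned above 0 in EBF1ΔC (0.17, 0.51 and 0.26). Iigp1 (-0.59) and Gbp2 (-0.58) were then not called lower in EBF1wt, and Gbp2b (-1.12) was. The change of scaling moves every gene of a comparison by the same amount, so the distance from the median of all genes does not depend on it: in EBF1wt that distance ranged from -1.94 for Gbp2b to -0.13 for Irgm1. In EBF1ΔC relative to that median, Iigp1 was at 1.21, Tgtp1 at 0.93 and Gbp2b at -0.48. In EBF1ΔC against EBF1wt the same scaling moved the median of all genes by -0.16, and all 8 genes stayed above 0, from 0.08 for Irgm2 to 2.45 for Iigp1, with 38.8% of the called genes higher against 52.0%.

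EBF1ΔC and EBF1wt were hybridised together on 2 slides, which allows the difference to be read within a slide. On slide 4, which held EBF1ΔC replicate 3 and EBF1wt replicate 2, it was 3.72 for Iigp1, 2.33 for Tgtp1, 2.08 for Gbp2b and 1.99 for Gbp2. On slide 5, which held EBF1ΔC replicate 1 and EBF1wt replicate 3, it was 1.80 for Iigp1, 1.11 for Gbp2b and 1.05 for Gbp2. The brighter Tgtp1 probe gave no difference there. Every gene with a value was higher in EBF1ΔC on both slides, and larger on slide 4. For Gbp3 the values were 0.65 and 0.44, for Irgm1 0.84 and 0.19, for Irgm2 0.35 and 0.31, and for Igtp 0.82 and 0.54. The median of all genes was -0.018 on slide 4 and 0.0043 on slide 5.

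Slide as a fixed block over all 9 arrays leaves 2 residual degrees of freedom for genes with a value on every array. Only Tgtp1 of the 8 was called in that fit (2.33), and this value comes from slide 4 alone. Because Tgtp1 lacks EBF1wt replicate 3, it has fewer, and its own residual comes only from Mock replicates 1 and 2 on slide 1. For the brighter probe, which stood for Tgtp1 in that fit, no second slide gives a difference. The dimmer probe read -3.50 on EBF1ΔC replicate 1 and -4.62 on EBF1wt replicate 3, both on slide 5. Iigp1 (2.76), Gbp2b (1.59) and Gbp2 (1.52) were not called in that fit. Without EBF1wt replicate 2 and EBF1ΔC replicate 3 the differences were 2.05 for Iigp1, 0.77 for Tgtp1, 1.13 for Gbp2b and 0.87 for Gbp2, and only Iigp1 and Gbp2b were called. For Gbp2 the call also ended when EBF1wt replicate 2 (0.94) or EBF1ΔC replicate 1 (1.23) was left out, with array weights (0.99) and with only the 2 groups in the fit (1.25). The call of Tgtp1 in EBF1ΔC over EBF1wt held in 12 of 22 alternative settings and was lost without Mock replicate 2 or 3 (1.46 in each), EBF1wt replicate 2 (0.94) or EBF1ΔC replicate 1, 2 or 3 (1.59, 1.503 and 1.29). Against Mock, the calls of Iigp1 (-0.99) and Gbp2 (-0.98) in EBF1wt were lost without EBF1wt replicate 2, and that of Tgtp1 in EBF1ΔC without Mock replicate 3 (0.99) or EBF1ΔC replicate 3 (0.86), and with normexp and quantile normalization (0.92), quantile normalization alone (0.95), the authors' deposited table (0.93) or array weights (0.95).

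**Figure D3:**
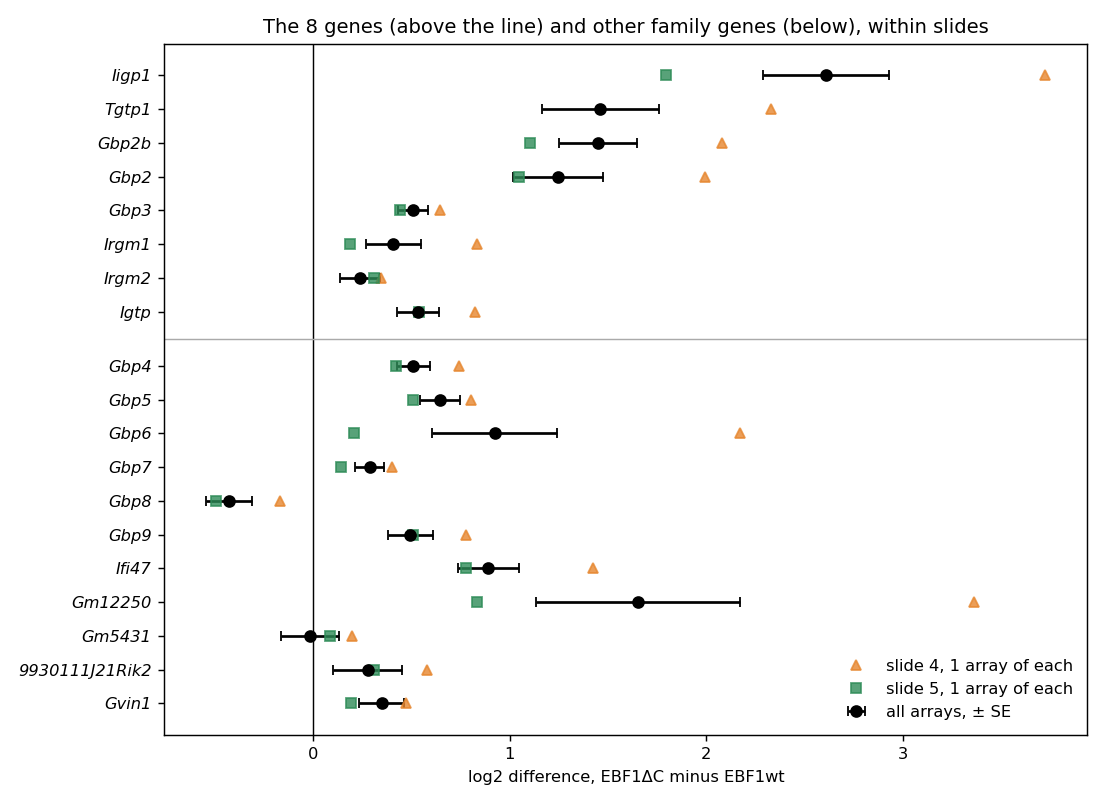
Log2 difference of EBF1ΔC minus EBF1wt (x axis) for the 8 genes above the grey line and 11 other GBP and IRG family genes below it: the fit over all arrays with its SE (black), and the difference between the 2 arrays on slide 4 (triangles) and on slide 5 (squares), each from 1 array of a group. Slide 4 gives the larger value for all 7 of the 8 genes that have both, and Gbp8 is the family gene below 0 on both slides.

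Arrays that were high for 1 of the 8 genes within a group tended to be high for the others. The correlation of deviations from the group means ranged from 0.32 for Gbp3 and Irgm1 to 0.95 for Tgtp1 and Gbp2b, over the same 9 arrays (8 for pairs with Tgtp1), with EBF1wt replicate 2 among them. This is a description of arrays that share their RNA and scaling.

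Probe positions put the genes in 3 clusters with other family members, apart from Iigp1. On chromosome 3, Gbp5, Gbp7, Gbp3, Gbp2b and Gbp2 span 116 kb in mm9. On chromosome 11, Irgm1, Gm5431, Tgtp1, 9930111J21Rik2 and Ifi47 span 231.2 kb, and Gm12250, Igtp and Irgm2 span 34.33 kb. All 5 genes of the chromosome 3 cluster were higher in EBF1ΔC than in EBF1wt; Gbp2b and Gbp2 were called, and Gbp3 (0.51), Gbp5 (0.65) and Gbp7 (0.29) passed the adjusted p without reaching 2-fold. In the larger chromosome 11 cluster Tgtp1 was called and Gm5431, near background, was at -0.01 (SE 0.15). Differences between genes of a cluster were not tested. Of the nearest measured genes outside the clusters, Pdlim5, Kyat3, Cdk2ap1, Olfr1395, Mrpl22 and Zfp692, none was called in any comparison. Kyat3, an aminotransferase gene 106.4 kb from the chromosome 3 cluster, was lower in EBF1ΔC than in EBF1wt by less than 2-fold (-0.48, SE 0.11, limma adjusted p = 0.0346).

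Of 20 other genes of the 2 families that were listed, 13 had a probe and 11 could be tested. The probes of Irgc1 and Gm4951 were well above background on no array. In EBF1ΔC against EBF1wt limma called 0 of the 11. An unadjusted p under 0.05 was met by 9, 8 of them higher, where 3020 of all 12054 genes met it, 1410 of them higher. By the adjusted p alone 5 passed, where 9.06% of all genes did. These 5 rose by less than 2-fold: Ifi47 by 0.89 (SE 0.16, adjusted p = 0.0120), Gbp5 by 0.65 (adjusted p = 0.00793), Gbp4 by 0.51 (adjusted p = 0.00934), Gbp9 by 0.50 (adjusted p = 0.0339) and Gbp7 by 0.29 (adjusted p = 0.0467). The median of the 11 was 0.50. Gbp8 lay on the other side of 0, at -0.43 (SE 0.12, adjusted p = 0.0574).

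Ifi47, the IRG also called Irg47, read 2.09, 2.04 and 1.87 on the Mock arrays, 1.76, 1.28 and 1.61 on the EBF1wt arrays, and 2.38, 2.24 and 2.70 on the EBF1ΔC arrays. It showed the order of Igtp, with EBF1wt lowest and EBF1ΔC highest. Gm12250, the gene of Irgb10, gave a signal well above background on 3 arrays of EBF1ΔC but 0 of EBF1wt. Its measured means were -4.11 and -5.76, a difference that was not called (limma adjusted p = 0.0885). The mean of EBF1ΔC was at least 2.30-fold higher, a bound taken against the dimmest probes well above background. The EBF1ΔC arrays read -4.65, -4.66 and -3.01, so replicate 3 raised both this mean and the bound. Replicates 1 and 2 lay beside Mock replicates 1 and 2 (-4.72 and -4.80). The bound without EBF1ΔC replicate 3 was not computed.

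Against Mock, Gbp6 was the family gene that was called higher in both EBF1 groups. It was not well above background on any of the 3 Mock arrays (mean -5.34), and was at least 2.70-fold higher in EBF1wt (mean -3.82, adjusted p = 0.00305) and at least 5.12-fold higher in EBF1ΔC (mean -2.90, adjusted p = 0.000261). With normexp and quantile normalization these were 0.50 and 0.80, and not called. Gbp6 passed the filter only through the EBF1 groups, so its direction against Mock was partly set by that filter. Gvin1, a member of the very large interferon-inducible GTPases, fell in EBF1wt by 1.39 (SE 0.12, adjusted p = 2.15e-05) and in EBF1ΔC by 1.05 (SE 0.12, adjusted p = 0.000107), the latter not called without Mock replicate 2 (-0.94) or as the mean of its probes (-0.76). Gbp8 fell in EBF1ΔC by 1.02 (SE 0.12, adjusted p = 0.000122), not called without Mock replicate 3 (-0.97) or EBF1ΔC replicate 2 (-0.91). The other tested genes of the list were not called, and its median was -0.59 in EBF1wt and 0.01 in EBF1ΔC. Under scaling to the median Gvin1 (-0.69 and -0.50) and Gbp8 (-0.48) remained below 0 and were not called, and 1 family gene was called higher in EBF1wt and 2 in EBF1ΔC.

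The interferons that induce these GTPases were at or near background. The probe of Ifng, the gene of interferon gamma, was well above background on 0 arrays, that of Ifna4 on 0, that of Ifnb1 on 1 and that of Ifna2 on 2. The receptor chains of interferon gamma did not differ detectably between EBF1ΔC and EBF1wt: Ifngr1 by -0.06 (SE 0.08) and Ifngr2 by -0.18 (SE 0.11). Ifngr1 was lower in both groups than in Mock, at -0.99 in EBF1wt (SE 0.08, adjusted p = 2.34e-05) and -1.04 in EBF1ΔC (SE 0.08, adjusted p = 1.93e-05), where only the latter reached 2-fold and did not without Mock replicate 3 (-0.99). The type I receptor chains Ifnar1 and Ifnar2 were not called in any comparison, with differences between 0.03 and 0.21.

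Of the 16 tested genes of interferon gamma signalling, 1 was called higher and 0 lower in EBF1ΔC against EBF1wt, with a median of 0.03. Irf1, an interferon-induced transcription factor that binds GBP promoters, rose by less than 2-fold (0.74, SE 0.11, adjusted p = 0.00633), from 3.13 ± 0.18 in EBF1wt to 3.86 ± 0.15 in EBF1ΔC (SD, n = 3), and Mock lay at 3.79 ± 0.02. Under the scaling used it was, like Gbp2, lower in EBF1wt than in Mock (-0.66, limma adjusted p = 0.000933). In EBF1ΔC it was close to Mock (0.07). Its place relative to Mock depended on the scaling. Scaling to the median moved the median of all genes in EBF1wt against Mock from 0.12 to 0.82, and Gbp2 stayed below 0 there (-0.58). The kinases Jak1 (0.21, SE 0.08) and Jak2 (0.12, SE 0.09) did not pass. Irf8, a partner of IRF1, was not called either.

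The call in this list was Ciita, the activator of MHC class II genes, which rose by 2.25 (SE 0.16, adjusted p = 0.000214) in EBF1ΔC over EBF1wt; it was 0.83 with normexp and quantile normalization and 0.75 in the authors' deposited table, and not called in either. Both groups stood far below Mock, by -6.77 in EBF1wt (adjusted p = 2.81e-08) and -4.52 in EBF1ΔC (adjusted p = 3.76e-07). Against Mock, the listed genes Socs3, Ptpn2, Ptpn11 and Pias1 were not called in either group. Socs1, a feedback inhibitor of the JAK kinases, was called lower by 1.86 in EBF1wt (limma adjusted p = 5.16e-05) and 1.62 in EBF1ΔC (adjusted p = 0.000113). The phosphatase gene Ptpn6 was called lower by 1.16 and 1.20. With Ciita, these 2 genes made 3 called lower in EBF1wt, and with Ifngr1 4 in EBF1ΔC, of 16. Under scaling to the median the calls of Ptpn6 (-0.45 and -0.65) and of Ifngr1 in EBF1ΔC (-0.50) ended, and each group had 2 called higher and 2 lower.

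Of 14 tested genes of type I interferon production and signalling, limma called 0 in EBF1ΔC against EBF1wt. An unadjusted p under 0.05 was met by 7, where 3020 of all 12054 genes met it. By the adjusted p alone 5 passed, where 9.06% of all genes did. Of these 5, 1 fell, Irf5, a factor of Toll-like receptor signalling (-0.65, adjusted p = 0.0102), and 4 rose by less than 2-fold: Irf7, the amplifier of interferon genes, by 0.93 (adjusted p = 0.0158), Stat2 by 0.55 (adjusted p = 0.0389), Irf9 by 0.42 (adjusted p = 0.0433), and Ifih1, a sensor of double-stranded RNA, by 0.68 (adjusted p = 0.00582). Against Mock, 5 were called lower in EBF1wt, among them Irf7 (-1.67), Stat2 (-1.47) and Sting1, the adaptor of cytosolic DNA sensing (-1.36). Under scaling to the median these were -0.97, -0.76 and -0.66, and 1 gene was called lower and 1 higher. In EBF1ΔC 2 were called lower, Sting1 (-1.34) and Cgas (-1.39), and Cgas was well above background on 1 EBF1ΔC array. Its call there ended without any 1 of the 3 Mock arrays (-1.55, -1.28 and -1.35), EBF1wt replicate 1 or 3 (-1.39 in each) or EBF1ΔC replicate 1 (-1.31) or 2 (-0.84), and it was -0.12 with normexp and quantile normalization. Under scaling to the median neither Sting1 (-0.80) nor Cgas (-0.85) was called in EBF1ΔC, and 1 other gene was called higher.

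**Figure D4:**
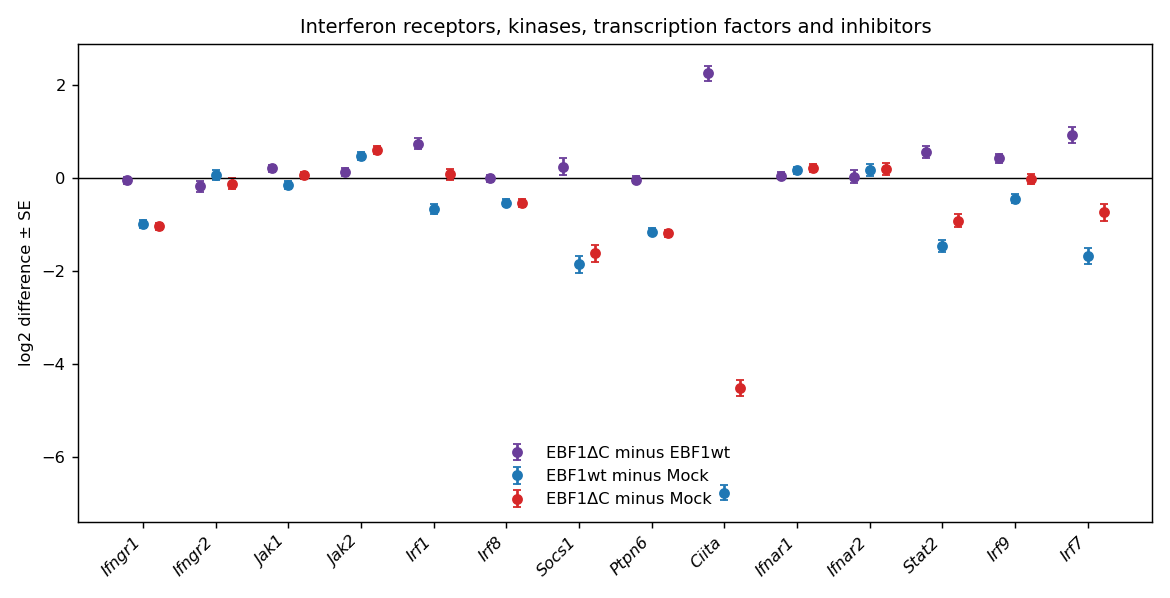
Log2 difference with its SE (y axis) of genes that transmit interferon signals (x axis: receptor chains, kinases, transcription factors, inhibitors and the target Ciita) in the 3 comparisons. Irf1, Stat2, Irf9 and Irf7 are above 0 in EBF1ΔC minus EBF1wt and, under the scaling used, below 0 in EBF1wt minus Mock. Receptor chains lie near 0 between EBF1ΔC and EBF1wt, and Ciita is the gene with the widest range.

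Other interferon-induced genes were tested for 23 of 31 listed. In EBF1ΔC against EBF1wt 3 were called higher and 0 lower, with a median of 0.29: Rtp4, a chaperone of receptors (1.87, SE 0.32, adjusted p = 0.0117), Zbp1, a sensor of Z-form nucleic acid (1.36, SE 0.26, adjusted p = 0.0172), and Usp18, which removes ISG15 from proteins (1.25, SE 0.23, adjusted p = 0.0150). All 3 lost the call with slide as a fixed block over all 9 arrays (2.18, 1.61 and 1.39), and with normexp and quantile normalization Zbp1 (0.99) and Usp18 (0.37) did. Without EBF1ΔC replicate 3 Usp18 was at 1.00 and not called, and without both that array and EBF1wt replicate 2 Zbp1 (0.87) and Usp18 (0.83) were not. The immunoproteasome genes Psmb8 (0.08) and Psmb9 (0.20), the peptide transporter gene Tap1 (0.18) and B2m (0.19), all known interferon targets, did not pass. The chemokine genes Cxcl9 and Cxcl10 were well above background on 0 arrays.

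These genes took different directions from Mock. In EBF1wt 6 were called lower and 1 higher, and in EBF1ΔC 4 lower and 2 higher, of 23. Under scaling to the median this turned to 3 lower and 5 higher in EBF1wt, and 2 lower and 5 higher in EBF1ΔC. Zbp1 fell by 3.80 in EBF1wt (adjusted p = 8.07e-06) and by 2.44 in EBF1ΔC (adjusted p = 8.93e-05), whereas Rtp4 rose in EBF1ΔC by 2.25 (adjusted p = 0.000427). Cmpk2, a mitochondrial kinase gene, was not well above background on any Mock array and was at least 2.36-fold higher in EBF1wt and at least 4.00-fold higher in EBF1ΔC.

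Some GBPs are prenylated, and the placement of GBPs and IRGs on vacuoles needs ATG proteins; of 25 listed genes for prenylation, autophagy and related cofactors, 24 were tested. In EBF1ΔC against EBF1wt limma called 0, and the median was 0.02. An unadjusted p under 0.05 was met by 2, where 3020 of all 12054 genes met it. Lgals8, a galectin that marks broken vacuoles, rose by 0.44 (SE 0.10, adjusted p = 0.0345) and was the single gene past the adjusted p. Atg5, whose product is needed for loading the effectors, was at 0.09 (SE 0.08). Against Mock both groups had 2 called higher, Lgals9 (1.97 in EBF1wt, 2.09 in EBF1ΔC) and Fnta, a farnesyltransferase subunit gene (1.18 and 1.02), where Fnta in EBF1ΔC was not called without Mock replicate 3 (0.96) or EBF1ΔC replicate 1 (0.99). Under scaling to the median 13 were called higher in EBF1wt and 8 in EBF1ΔC.

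Inflammasome genes, which act downstream of GBPs when these expose bacterial products, were tested for 6 of 9. Casp1 rose by 1.20 (SE 0.17, adjusted p = 0.00474) and Casp4, the sensor of cytosolic lipopolysaccharide, by 1.34 (SE 0.20, adjusted p = 0.00666) in EBF1ΔC against EBF1wt. Casp4 was at 1.39 and not called with slide as a fixed block over all 9 arrays. Pycard, Gsdmd, Nek7 and Nlrp3 were not called in that comparison. Against Mock the caspases parted: Casp4 fell in both groups (-4.01 and -2.67), while Casp1 was called higher in EBF1ΔC (1.58, adjusted p = 8.93e-05). In all, 3 of the 6 were called lower in each group; under scaling to the median 1 was, Casp4 (-3.31 and -2.13).

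Markers of other cells that express these GTPases were read on the same arrays. Of 7 macrophage and monocyte markers, 3 were well above background on all EBF1ΔC arrays, 2 on all EBF1wt arrays and 3 on all Mock arrays. Their summed linear level, in units of the array's 75th percentile, was 8.10 to 16.6 in EBF1ΔC, 0.670 to 3.38 in EBF1wt and 5.74 to 5.89 in Mock. Of 3 tested, only Lyz2, a lysozyme gene of myeloid cells, was called higher in EBF1ΔC than in EBF1wt (3.11, SE 0.63, limma adjusted p = 0.0210). Its SD on the EBF1wt arrays was 1.46. Fcgr3 (0.36, SE 0.76) and Ccr2 (1.36, SE 0.42) were not called. In EBF1ΔC the mean of Lyz2 was 3.59, against -0.94 for Fcgr3 and -4.57 for Ccr2, so the sum largely follows Lyz2. The sum and Lyz2 were higher in EBF1ΔC than in EBF1wt, as all 8 GTPase genes were. Against Mock, Lyz2 was called higher in EBF1wt (2.06, SE 0.63, limma adjusted p = 0.0185), and Fcgr3 (-3.46) and Ccr2 (-5.81) lower. The 8 GTPase genes were below Mock there under the scaling used. The defining markers Csf1r, Adgre1 and Itgam were well above background on no array of EBF1ΔC or EBF1wt. Summed T and NK cell markers (0.152 to 0.172 in EBF1ΔC, 0.147 to 0.207 in EBF1wt) and dendritic cell markers (0.0504 to 0.0666 and 0.0413 to 0.0563) had low sums in both groups, with Cd3g, Cd4, Cd8a, Itgax, Siglech and Clec9a well above background on no array of either. The part of other cells in the GTPase differences was not tested.

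Genes outside both families whose level followed each of the 8 most closely over the arrays were taken by Pearson correlation, among 10697 genes whose probe exceeded background on each of the arrays. For Iigp1 these were Tle6 (r = 0.99) and Isg15, the interferon-induced ubiquitin-like modifier (0.97). For Tgtp1, over 8 arrays, they were Mex3b (0.997) and Rgs10 (0.98), and for Gbp2b Jun, a subunit of AP-1 (0.99), and the cytokine gene Csf1 (0.99). Gbp2 was followed by Clec2i (0.99) and Cbfa2t3 (0.99), Gbp3 by Tbxa2r (0.99) and Atp13a2 (0.98), Irgm1 by Tle5 (0.96) and Wdr35 (0.96), Irgm2 by Gab3 and Plpp5 (0.97 each), and Igtp by Zfp608 (0.97) and Zfp579 (0.96). The correlations are over 9 arrays in 3 groups and largely restate the group means. Isg15 was the gene among these 16 that is a classical interferon target, and it rose in EBF1ΔC over EBF1wt by 0.86 (SE 0.16, adjusted p = 0.0147).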

How the data were processed

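RNA of 9 samples (3 each of Mock, EBF1wt and EBF1ΔC) was hybridised to 1-colour (Cy3) Agilent arrays. The authors deposited scanner output with intensity per spot, background-subtracted by Agilent Feature Extraction 10.5.1.1 per the file headers (9.1 per the submitters' processing notes), and a series table of values that track log2 of quantile-normalized signal, deposited by the authors with no stated scale, direction or centring; it correlated with normexp and quantile values of the same array at r = 0.999, and its columns have medians of 6.735 to 6.742. Probe positions are on mm9 per the file headers.

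Main values were log2 of the processed signal minus the array's 75th percentile. Control spots and outlier spots were left out, spots of 1 probe averaged, and probes kept if well above background on all 3 arrays of a group (22355 of 41174). The passing probe with the highest mean stood for a gene, named through RefSeq accessions where possible. Limma 3.58.1 (R 4.3.3) fitted 1 mean per group over all 9 arrays (6 residual degrees of freedom), with Benjamini-Hochberg adjustment over 12054 genes; calls needed adjusted p under 0.05 and 2-fold. The fit was tested on simulated data. The number of arrays limits precision. For genes at background in a whole group, at-least folds compare the bright group's mean with the higher of the dim probe and the dimmest probe well above background per array.

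The 8 genes, the gene lists and motifs were chosen with earlier results of these data known. Named genes were the 8; up to 6 called and 3 uncalled genes per list, plus ligands, receptors and STATs; cluster neighbours; the 2 most correlated genes per member. Tap1, Atg5, Jak2, Ifih1, Irf5, Irf9, Isg15, Lgals8, Cxcl9 and Cxcl10 were named after their values were seen. Alternatives covered background, scaling, filter, probe choice, slide, replicate number and left-out arrays. Promoter windows were searched by exact letters. Same-numbered replicates did not deviate together, so no pairing was used. The values of 1 gene of the interferon gamma list are not reported here.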

Additional observations from a re-analysis of the deposited data

How the results depend on the processing

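No result changed sign while called. The number of genes called in EBF1ΔC against EBF1wt, 331, was 129 with normexp and quantile normalization, 125 with the authors' values, 217 when probes had to be well above background on all 9 arrays, 208 with only the 2 groups in the fit, 1092 with no limit on the fold and 146 with slide as a fixed block over all 9 arrays, which was added after seeing the data. The planned fixed block on the 4 arrays of slides 4 and 5 left 1 residual degree of freedom. Of 12024 genes limma then called 0, with 1506 at an unadjusted p under 0.05. The same settings in that order gave, for EBF1wt against Mock (2346), 1036, 1015, 1495 and, without the fold limit, 8008, and for EBF1ΔC against Mock (2187), 1047, 1019, 1427 and 7759; scaling to the median gave 5373 and 3945. With every probe fitted on its own, so that probes were counted, the genes called in EBF1wt against Mock became 5254 and the genes called in EBF1ΔC against Mock 4990.

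Of the GTPase genes, 4 were called in EBF1ΔC against EBF1wt: 2 with only the 2 groups, 0 with slide blocked on 4 arrays, 1 on 9 arrays, 2 without EBF1wt replicate 2 and EBF1ΔC replicate 3 together (added after seeing the data), and 2 to 4 when 1 array was left out. In EBF1wt against Mock the 3 calls became 1 with median scaling, 1 without that pair of arrays, 5 without the fold limit, and 1 to 3 with 1 array left out. In EBF1ΔC against Mock the 2 calls became 1 with normexp, quantile, the filter on all 9 arrays, the mean of probes, array weights or that pair left out, 0 with the authors' values, 5 without the fold limit, and 1 to 2 with 1 array left out. Of the other family genes, 0 were called in EBF1ΔC against EBF1wt, but 1 with median scaling and 5 without the fold limit; in EBF1wt against Mock the 2 calls became 1 with normexp, median scaling, the authors' values or the filter on all 9 arrays, and 9 without the fold limit, and 2 to 3 with 1 array left out; in EBF1ΔC against Mock the 3 became 1 with normexp or the authors' values, 7 without the fold limit, and 2 to 3. The cause was not tested, beyond the smaller number of genes or arrays where a setting removes some. Where the fold limit was dropped, 9.06% of all genes passed in EBF1ΔC against EBF1wt. Against Mock, 66.4% of all genes then passed in EBF1wt and 64.4% in EBF1ΔC. A rise in the count against Mock alone therefore does not set the GTPase or family genes apart.

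With the replicate block 281, 2345 and 2174 genes were called, and Tgtp1 lost its call in EBF1ΔC against EBF1wt (1.40); same-numbered arrays correlated at -0.18 to 0.12 and share only a number. Signal near background limits Gbp6, Gm12250, Cgas and Cmpk2. Of these, Gbp6, Gm12250 and Cmpk2 passed the filter only through groups in which they were higher.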
